A study of Homo sapiens with 6 samples.

Results

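Bone morphogenetic protein (BMP) signalling and its *ID* target genes were followed here through 10 genes, chosen by symbol: the ligands *BMP4* and *BMP7*, the secreted antagonist *GREM1*, the receptors *BMPR1A* and *BMPR2*, the inhibitory SMADs *SMAD6* and *SMAD7*, and the targets *ID1*, *ID2* and *ID3*. These genes, and the lists of other pathway genes below, were chosen with earlier results of these data known. All 10 were among the 26485 genes of the count table and all 10 passed the filter on low counts, which kept 14877 genes. Poly(A) RNA was sequenced from 6 HEK293 cultures, a line of human embryonic kidney cells. In 3 cultures the lncRNA *HSALNG0134318* was knocked down by transient transfection of a Smart Silencer, a mixture of siRNAs and antisense oligonucleotides. The other 3 were controls, labelled NC and, for genotype, WT; what these controls were transfected with is not given in the sources used here. The series describes the cultures as biological replicates of a single cell line, and *HSALNG0134318* is not a row of the table used here, so its own level could not be checked.

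In this pathway, a secreted BMP dimer brings together type I receptors such as BMPR1A and the type II receptor BMPR2, and the type I receptor then phosphorylates SMAD1, SMAD5 or SMAD9. These SMADs join SMAD4, enter the nucleus and activate targets, among which the *ID* genes are the best known. ID proteins lack a DNA-binding domain and hold back basic helix-loop-helix factors by pairing with E proteins, and SMAD6 and SMAD7 are induced by the pathway and feed back to inhibit it. In the embryonic kidney, BMP7 maintains nephron progenitors, BMP4 acts around the ureteric bud and stalk, and the antagonist GREM1 permits the ureteric bud to branch.

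The libraries held between 13900965 and 16869948 counts in genes. All 8 HEK293 kidney and neuronal genes listed (*PAX2*, *SALL1*, *LHX1*, *NEFM*, *NEFL*, *KRT8*, *KRT18* and *CDH2*) were detected in every culture, with log2 fold changes from -0.18 to 0.81. Control replicate 2 stood apart: its root mean square log2 distance to the other controls was 0.445 and 0.486, against 0.369 between those and 0.271 to 0.315 among knockdown cultures. Distances to the knockdown cultures were 0.47 to 0.50 for control replicate 1, 0.53 to 0.55 for control replicate 2 and 0.40 to 0.41 for control replicate 3. Values that rest on it are given with and without it.

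Of the 10 genes, *ID2* fell by 33.2% after knockdown, and *BMPR2* fell by a smaller amount with an adjusted p close to the threshold. With all 6 cultures and no replicate block, edgeR called none higher. In this fit (adjusted p under 0.05 over all genes tested), 2 of 10 were called lower, where 4.64% of all genes tested were, and 0 of 10 higher, where 5.4% of all genes were. At an unadjusted p under 0.05 the numbers were 3 lower and 1 higher, where 26.9% of all genes tested were under it in either direction, and neither DESeq2 nor limma-voom called any of the 10 higher. The normalized counts of the groups did not overlap for *BMPR2*, *SMAD7* and *ID2*, all lower in the knockdown, while 32.2% of all genes tested had groups without overlap. The median log2 fold change was -0.14 over the 10 genes and -0.02 over all genes tested. Because the 10 genes were chosen with earlier results known, these comparisons with all genes are descriptive only. In bulk RNA, fewer cells expressing a gene and less RNA per cell cannot be told apart.

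**Figure D1:**
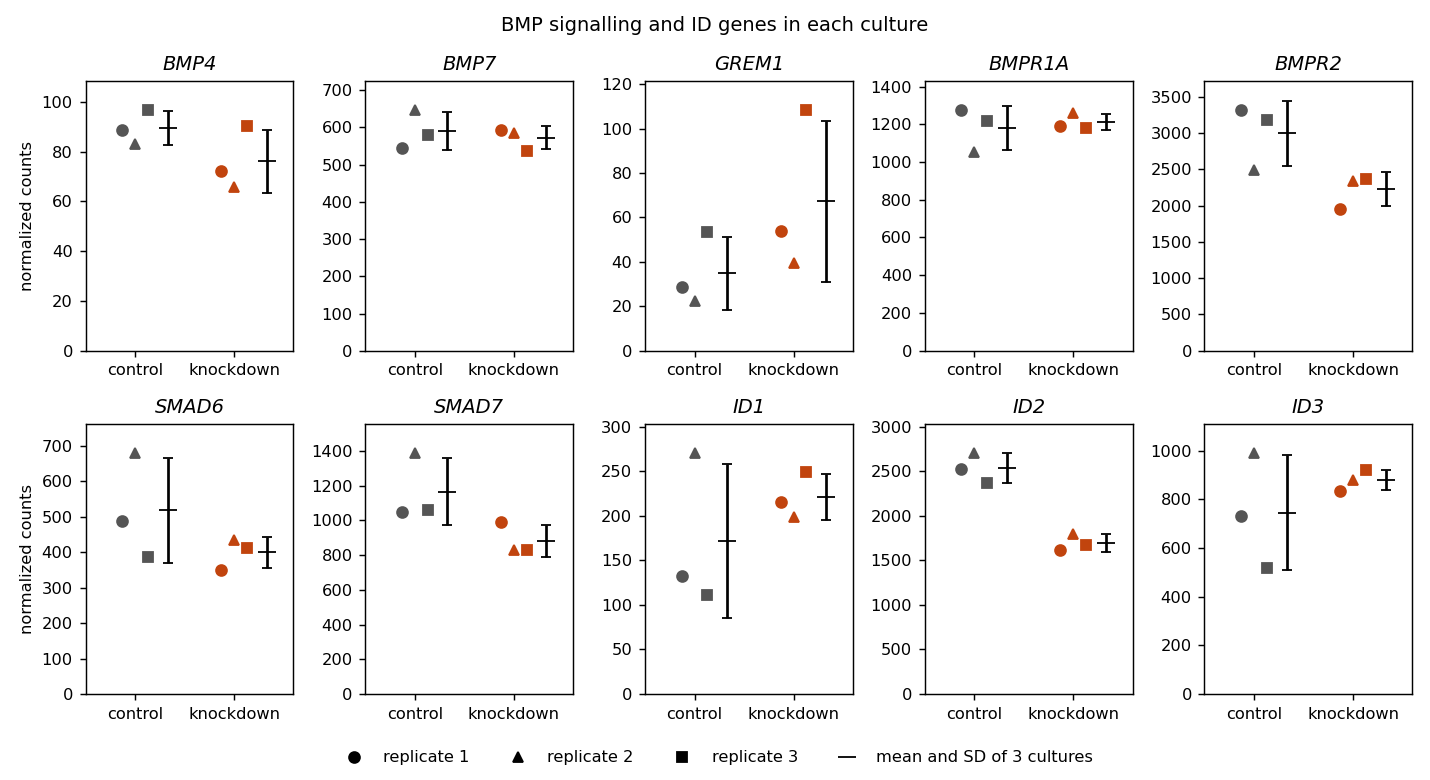
Normalized counts (vertical axes, from 0) of the 10 genes in 3 control and 3 knockdown HEK293 cultures; marker shapes give the replicate, and the bar beside each group gives the mean and SD of its 3 cultures. The groups are apart for *ID2*, *BMPR2* and *SMAD7*, and control replicate 2 (triangle) is the highest of all 6 cultures for *BMP7*, *SMAD6*, *SMAD7*, *ID1*, *ID2* and *ID3*.

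*ID2* (chr2:8678845-8684461, plus strand, hg38), which restrains differentiation by binding E proteins, had 2528, 2705 and 2371 normalized counts in control replicates 1, 2 and 3 and 1613, 1801 and 1669 in knockdown replicates 1, 2 and 3. Every knockdown culture was below every control culture. The log2 fold change was -0.58 (SE 0.09, 95% interval -0.78 to -0.38, edgeR adjusted p = 0.0026), and the means were 2535 ± 167 in controls and 1694 ± 96.4 in the knockdown (SD, n = 3). *ID2* was called in all 14 alternative settings, with log2 fold changes from -0.63 to -0.53 and adjusted p from 5.09e-06 to 0.0259. The antisense lncRNA *ID2-AS1*, which overlaps *ID2* on the opposite strand, had 142 counts over the 6 cultures together; the strand setting of the counting is not given in the sources used here.

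*ID1* and *ID3* were not called with all 6 cultures. *ID1* (chr20:31605283-31606515, plus strand), a classical direct target of BMP-activated SMADs, had 133, 270.4 and 111 normalized counts in control replicates 1, 2 and 3 and 216, 198 and 249 in the knockdown cultures. *ID3* (chr1:23557926-23559501, minus strand), a close relative that is often induced together with *ID1*, had 730, 990 and 517 in the controls and 836, 879 and 919 in the knockdown cultures. For both genes control replicate 2 was above all knockdown cultures and the other controls were below all of them, so the groups overlapped. With all 6 cultures the log2 fold change was 0.36 for *ID1* (SE 0.29, 95% interval -0.29 to 1.01, adjusted p = 0.47) and 0.23 for *ID3* (SE 0.19, 95% interval -0.19 to 0.66, adjusted p = 0.472). Without control replicate 2, the log2 fold change was 0.86 for *ID1* (SE 0.17, adjusted p = 0.00263, 1.81-fold) and 0.49 for *ID3* (SE 0.13, adjusted p = 0.0151, 1.41-fold). That setting called 8.45% of all genes tested higher and 8.21% lower, so its counts stand against a higher background. Control replicate 3 held the lowest value of both genes. With it left out instead, edgeR gave log2 fold changes of 0.133 for *ID1* (adjusted p = 0.768) and 0.035 for *ID3* (adjusted p = 0.888).

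Control replicate 2 was above the mean of the other controls by 1.14 on the log2 scale for *ID1*, a gap that 1.41% of tested genes reached or passed, by 0.69 for *ID3* (6.11%), by 0.65 for *SMAD6* (7.11%) and by 0.40 for *SMAD7* (16.0%). For *ID2* the gap was 0.14 (34.7%). It was below them for *BMPR2* by a log2 difference of -0.38. It was also above them for *BMP7*, by 0.20 (29.0%). *BAMBI*, a decoy receptor that is itself induced by BMP, had 921 normalized counts there against 584 and 442 in the other controls (3.52%). Of the 10 other receptors and co-receptors tested, it was the only one in the top 5% of tested genes. Control replicate 2 was above the mean of the other controls for 7 of these and below it for 3, with a median log2 difference of 0.11. The homeobox target *MSX1*, named after its values were seen, had 371 there against 156 and 95.7. Of the 10 other target genes, control replicate 2 was above the mean of the other controls for 8 and below it for 2 (*RUNX2* and *TMEM100*), with log2 differences from -0.39 to 1.59 and a median of 0.28, and *MSX1* was the only one of the 10 in the top 5% of tested genes. Of all genes tested, 48.1% had a difference of 0.02 or more in the same comparison. *ID4*, the remaining family member, had 3019 in control replicate 2 against 2507 and 2766. What set this culture apart was not tested.

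**Figure D2:**
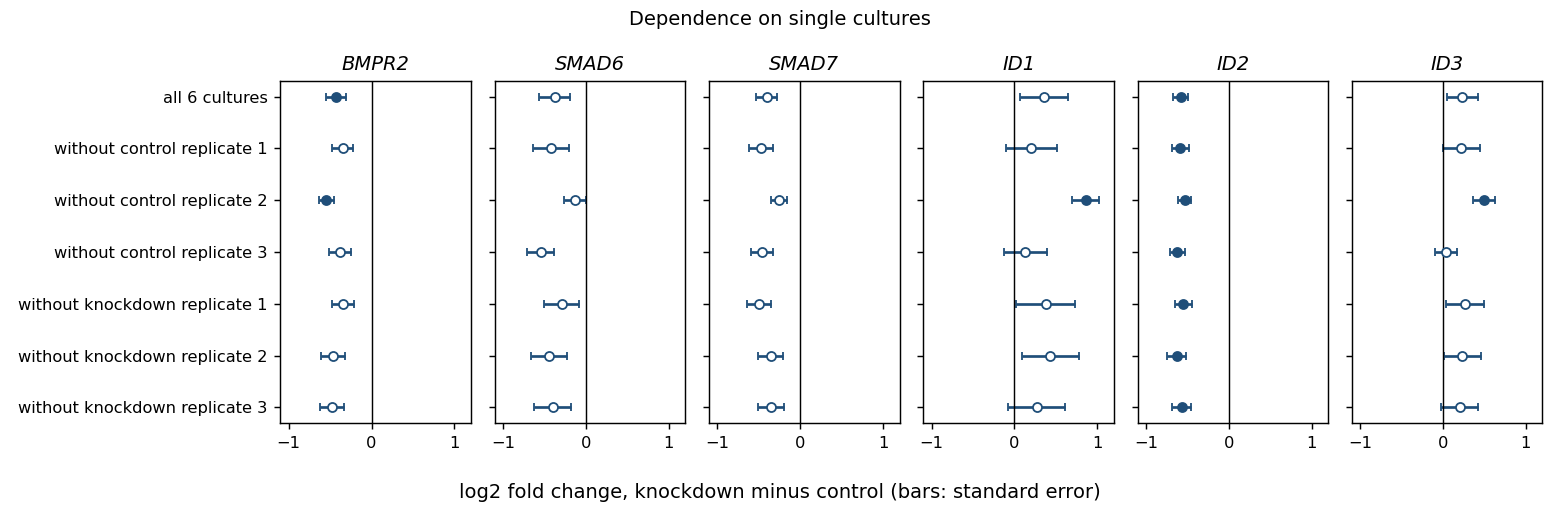
Log2 fold change, knockdown minus control (horizontal axes), of 6 genes with all 6 cultures and with each culture left out; bars are standard errors and filled points passed an adjusted p of 0.05 in edgeR. *ID2* was called throughout, *BMPR2* only with all cultures or without control replicate 2 among these fits, and *ID1* and *ID3* only without control replicate 2.

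The ratio of *ID2* to the other *ID* genes within each culture was also taken, a comparison chosen after the values were seen. The ratio of *ID2* to *ID1* counts was 19.1, 10 and 21.3 in control replicates 1, 2 and 3 and 7.47, 9.08 and 6.70 in the knockdown cultures. The ratio of *ID2* to *ID3* was 3.47, 2.73 and 4.59 in the controls and 1.93, 2.05 and 1.82 in the knockdown. Neither ratio overlapped between groups, control replicate 2 included, although that culture came closest to the knockdown in both. The ratio of *ID2* to *ID4* was 1.01, 0.896 and 0.858 in the controls and 0.735, 0.603 and 0.588 in the knockdown, again without overlap. The mean log2 ratio differed by -1.05 for *ID1*, -0.87 for *ID3* and -0.52 for *ID4*. In the two-sided exact permutation test, p was 0.1 for each and 0.1 after adjustment over the 3 ratios, the smallest value that 3 against 3 cultures can give. All 3 ratios share *ID2*, already called lower, and were chosen after the values were seen, so this test decides nothing. The difference for *ID4* mostly restates *ID2* itself, whose log2 fold change was -0.582 where that of *ID4* was -0.048. Ratios of other gene pairs were not taken for comparison. By level per transcript length, *ID2* made up 55.7%, 49.8% and 57.1% of the summed *ID1* to *ID4* level in the controls and 42.7%, 42.2% and 39.7% in the knockdown.

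**Figure D3:**
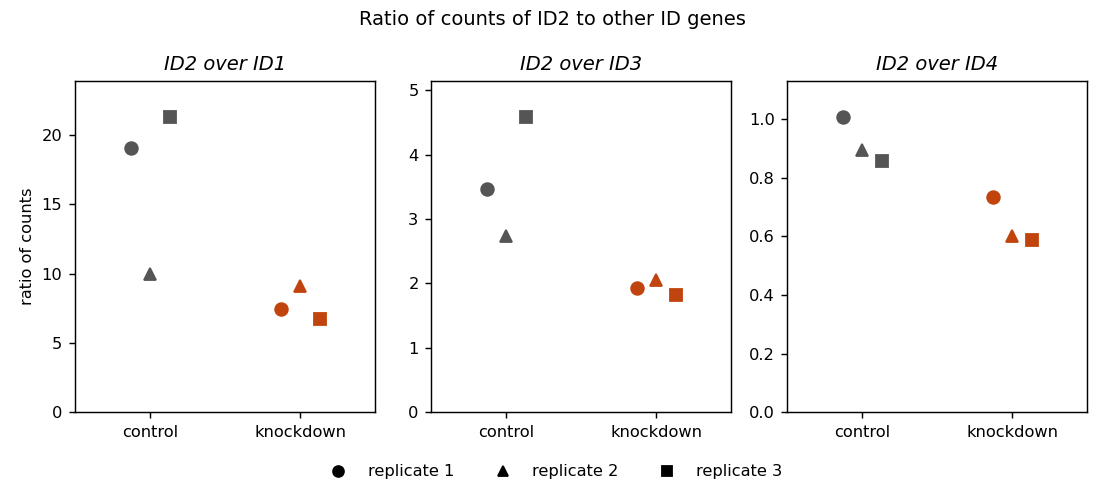
Ratio of *ID2* counts to *ID1*, *ID3* and *ID4* counts (vertical axes, from 0, no unit) in each of 3 control and 3 knockdown cultures, marker shapes giving the replicate. All 3 ratios are lower in every knockdown culture than in any control; for *ID2* over *ID1*, control replicate 2 at 10 lies next to the highest knockdown culture at 9.08.

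The promoters of *ID2* and *BMPR2* are shown because these are the genes called lower, and those of *ID1* and *ID3* for comparison within the *ID* family. Each line gives the 250 bases before the transcript start in RefSeq, from GRCh38.p14, 5′ to 3′ on the strand of the gene, with capitals marking GGCGCC, a GC-rich element bound by SMAD1 and SMAD5, or GTCTG on either strand, which holds the SMAD-binding core. The windows are chr20:31605039-31605288 (plus strand) for *ID1*, chr2:8681806-8682055 (plus) for *ID2*, chr1:23559502-23559751 (minus) for *ID3* and chr2:202376077-202376326 (plus) for *BMPR2*.
ID1: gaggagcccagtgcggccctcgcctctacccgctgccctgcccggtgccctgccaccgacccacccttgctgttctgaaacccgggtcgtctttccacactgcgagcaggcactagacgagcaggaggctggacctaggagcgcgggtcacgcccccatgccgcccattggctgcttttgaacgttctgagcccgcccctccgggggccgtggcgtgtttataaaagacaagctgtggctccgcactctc
ID2: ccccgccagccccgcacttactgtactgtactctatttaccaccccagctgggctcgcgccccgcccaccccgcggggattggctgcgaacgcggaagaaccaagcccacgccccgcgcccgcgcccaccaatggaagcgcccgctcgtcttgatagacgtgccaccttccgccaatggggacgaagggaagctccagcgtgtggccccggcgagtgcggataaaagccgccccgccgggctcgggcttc
ID3: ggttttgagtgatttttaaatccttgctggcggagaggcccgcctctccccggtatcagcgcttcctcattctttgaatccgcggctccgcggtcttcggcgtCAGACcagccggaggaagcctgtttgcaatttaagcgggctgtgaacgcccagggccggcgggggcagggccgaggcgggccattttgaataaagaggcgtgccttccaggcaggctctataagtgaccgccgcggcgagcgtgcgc
BMPR2: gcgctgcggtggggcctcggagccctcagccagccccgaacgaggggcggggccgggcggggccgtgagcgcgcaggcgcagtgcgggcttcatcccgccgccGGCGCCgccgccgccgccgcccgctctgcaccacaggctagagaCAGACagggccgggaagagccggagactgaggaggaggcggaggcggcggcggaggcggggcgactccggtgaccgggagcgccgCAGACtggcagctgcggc
Over windows from 250 bases before to 50 after the start, *ID1* and *ID2* held neither motif. *ID3* held 1 GTCTG match and no GGCGCC. *BMPR2* held 1 GGCGCC and 4 GTCTG matches, 2 of them after the start and so outside the printed stretch. Among 35116 RefSeq promoter windows of the same length, 19.2% held GGCGCC and 45.3% held GTCTG. A match is a string of letters and not a bound site, and absence from this window says nothing of elements farther away. RefSeq promoters were matched for 9 of the 10 genes.

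Both receptors were well detected, and they differed in their values. *BMPR2* (chr2:202376327-202567751, plus strand), the type II receptor for BMP ligands, had 3321, 2492 and 3178 normalized counts in control replicates 1, 2 and 3 and 1957, 2344 and 2375 in the knockdown cultures. The highest knockdown culture lay just under control replicate 2, so the groups did not overlap but came close. The log2 fold change was -0.43 (SE 0.12, 95% interval -0.70 to -0.16, adjusted p = 0.0453). The call was held in 8 of 14 alternatives and was lost in limma-voom (adjusted p = 0.0528) and without control replicate 1 (0.152) or 3 (0.0914), or knockdown replicate 1 (0.179), 2 (0.109) or 3 (0.107). Without control replicate 2 it was -0.55 (SE 0.09, adjusted p = 6.83e-04). *BMPR1A* (chr10:86756596-86932825, plus strand), a type I receptor, had 1276, 1051 and 1216 in the controls and 1193, 1260 and 1182 in the knockdown. Its groups overlapped, with a log2 fold change of 0.04 (SE 0.10, 95% interval -0.18 to 0.25, adjusted p = 0.847).

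The ligands gave no call. *BMP7* (chr20:57168753-57266641, minus strand) had 545, 647 and 580.3 normalized counts in control replicates 1, 2 and 3 and 593, 586 and 537 in the knockdown cultures, with a log2 fold change of -0.05 (SE 0.11, 95% interval -0.29 to 0.20, adjusted p = 0.827). *BMP4* (chr14:53949736-53958761, minus strand) had 88.8, 83.0 and 96.7 in the controls and 72.3, 65.7 and 90.2 in the knockdown, with a log2 fold change of -0.23 (SE 0.20, 95% interval -0.67 to 0.20, adjusted p = 0.482). Knockdown replicate 3 lay among the controls for *BMP4*, while the other knockdown cultures were below all of them.

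*GREM1* (chr15:32718004-32745106, plus strand), which binds BMP2, BMP4 and BMP7 outside the cell and keeps them from their receptors, was the least abundant of the 10. It had 28.6, 22.3 and 53.5 normalized counts in control replicates 1, 2 and 3 and 54.0, 39.6 and 108 in the knockdown cultures. Replicate 3 was the highest of each group, and the groups overlapped. The log2 fold change was 0.96 with a wide error (SE 0.41, 95% interval 0.05 to 1.87, adjusted p = 0.165). It ran from 0.44 without knockdown replicate 3 to 1.41 without control replicate 3.

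The inhibitory SMADs had lower mean counts in the knockdown, and neither passed the test. *SMAD7* (chr18:48919853-48950965, minus strand), which blocks both BMP and TGF-beta receptors, had 1050, 1388 and 1059 normalized counts in control replicates 1, 2 and 3 and 990, 827 and 828 in the knockdown cultures. The groups did not overlap, with a log2 fold change of -0.40 (SE 0.13, 95% interval -0.69 to -0.12, adjusted p = 0.0719). It was called in 3 of 14 alternatives, namely no filter, the DESeq2 Wald test and the correction for GC content and length (adjusted p = 0.0062). That correction called 1512 of 14473 genes lower, against 690 of 14877 in the main fit. *SMAD6* (chr15:66702236-66782849, plus strand), which acts mainly on BMP receptors, had 489, 680.1 and 386 in the controls and 351, 436 and 412 in the knockdown. Control replicate 3 lay within the range of the knockdown cultures and the other controls lay above it. The log2 fold change of *SMAD6* was -0.38 (SE 0.18, 95% interval -0.78 to 0.03, adjusted p = 0.218). Without control replicate 2, *SMAD6* was at -0.13 (adjusted p = 0.553) and *SMAD7* at -0.26 (adjusted p = 0.0948).

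Per transcript length, *ID2* was the most abundant of the 10 in both groups, at 130 ± 8.54 FPKM (counts per kb of canonical transcript, scaled for library size) in controls and 86.7 ± 4.93 in the knockdown (SD, n = 3). *ID3* came next at 52.2 ± 16.6 and 61.4 ± 2.91, followed by *SMAD7* at 23.2 ± 3.83 and 17.5 ± 1.87, and by *BMPR2* at 16.5 ± 2.44 and 12.3 ± 1.28. In the controls the ranges of these 4 genes did not overlap with that of their neighbours in the order, and *BMPR2* lay above *BMPR1A* (12.2 ± 1.21). Below it, *BMPR1A*, *ID1* (11.6 ± 5.85), *BMP7* (9.77 ± 0.858) and *SMAD6* (9.0 ± 2.59) were not fully ordered: *ID1* ranged from 7.51 to 18.3 and overlapped the other 3 as well as *BMPR2*, and *SMAD6* overlapped *BMP7* and *BMPR1A*, while *BMPR1A* lay above *BMP7* in every control. *BMP4* lay apart at 3.08 ± 0.237, and *GREM1* was lowest at 0.159 ± 0.0753, a level set by a canonical transcript of 14575 nucleotides. In the knockdown, *ID1* (13.4 to 16.8) lay above both receptors' ranges. *BMPR1A*, *BMPR2* and *SMAD6* share part of their span with other annotated genes on the same strand, and *BMP4*, *BMP7* and *GREM1* with antisense lncRNAs, and how reads there were assigned was not tested.

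**Figure D4:**
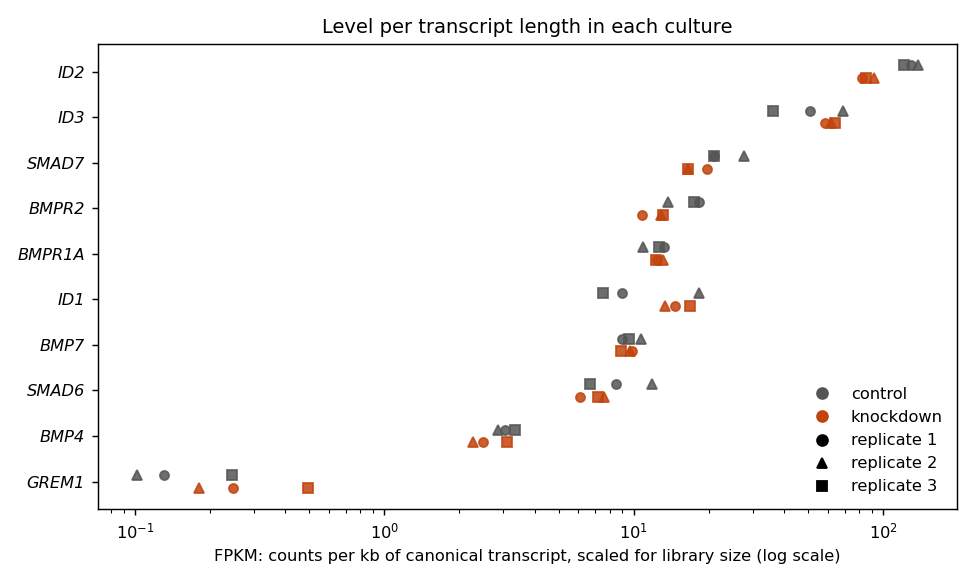
FPKM, counts per kb of canonical transcript scaled for library size (horizontal axis, log scale), of the 10 genes, ordered by their control mean; grey markers are control and orange markers knockdown cultures, with shapes for replicates. Levels span from 0.102 for *GREM1* to 138 for *ID2*, and the 3 controls of *ID1* and of *GREM1* are the most spread on this scale.

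The other genes of the pathway were taken from 9 lists of ligands, proteases, antagonists, receptors, SMADs, SMAD regulators, targets, E proteins and the TGF-beta and activin branch. Of 84 genes in the table, 72 were tested, 10 were called lower and 4 higher, beside 4.64% and 5.4% of all genes tested. Their median log2 fold change was -0.11. The lists were chosen with earlier results of these data known, so the comparison with all genes is descriptive only. The named genes are those called and, of the rest, the 3 of each list with the highest mean count.

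At the level of ligands and their processing, the clearest change was in *FURIN*, the convertase that cleaves BMP precursors into active ligands. It had 4282, 4715 and 3880 normalized counts in control replicates 1, 2 and 3 and 2840, 2715 and 2569 in the knockdown cultures. All knockdown cultures were well below all controls (log2 fold change -0.66, SE 0.10, adjusted p = 0.00167), and the call was held in all 14 alternatives. The related convertases *PCSK6* (0.28, SE 0.09, adjusted p = 0.0636) and *PCSK5* (0.45, SE 0.14, adjusted p = 0.0634) had higher counts in every knockdown culture than in any control without passing the main test. Of 14 alternatives, 5 called *PCSK5*, the DESeq2 Wald test among them, and 3 called *PCSK6*. The tolloid protease *BMP1* was at 0.04 (adjusted p = 0.881). Of 7 other ligands tested, edgeR called 0, 1 had an unadjusted p under 0.05, and the DESeq2 Wald test called 1, in both cases *BMP6*. *BMP6* had 233, 319 and 349 in the controls and 462, 391 and 412 in the knockdown, without overlap (log2 fold change 0.49, SE 0.15, adjusted p = 0.0694). *BMP2* was at -0.07 (adjusted p = 0.691) and *BMP8B* at -0.02 (adjusted p = 0.941).

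Among 8 other extracellular antagonists tested, edgeR called 1 lower, where 4.64% of all genes tested were. At an unadjusted p under 0.05, 3 were lower, *TWSG1* and *CHRD* among them, and 0 higher, where 26.9% of all genes tested were under it in either direction. Groups were without overlap for 4, all lower, beside 32.2% of all genes tested in either direction. *TWSG1*, a secreted protein that binds BMPs together with chordin, had 1881, 1702 and 1962 normalized counts in the controls and 1170, 1433 and 1403 in the knockdown. The groups were apart (log2 fold change -0.47, SE 0.10, adjusted p = 0.0165). Its call was lost without control replicate 1 (adjusted p = 0.0606) and without knockdown replicate 1 (0.0804) or 3 (0.0611). The antagonists *CHRD* (-0.47, SE 0.18, adjusted p = 0.124), *BMPER* (0.05, adjusted p = 0.892) and *NOG* (0.10, adjusted p = 0.835) were not called.

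Of 10 other receptors and co-receptors tested, 3 were lower and 1 higher. *ACVR2B*, a type II receptor shared by activins and BMPs, had 2023, 1468 and 1560 normalized counts in control replicates 1, 2 and 3 and 1014, 1185 and 1227 in the knockdown cultures (log2 fold change -0.56, SE 0.13, adjusted p = 0.0197). *ACVR1*, a type I BMP receptor also known as ALK2, had 714, 689.9 and 595 in the controls and 517, 475 and 449.8 in the knockdown (-0.47, SE 0.12, adjusted p = 0.0258). *NEO1*, neogenin, a receptor for the BMP co-receptors of the RGM family, had 5158, 4767 and 4282 in the controls and 3431, 3530 and 3518 in the knockdown (-0.44, SE 0.09, adjusted p = 0.0123). These genes and *BMPR2* are named together because they were called lower. Each was lower in every knockdown culture than in any control, and 32.2% of all genes tested had groups without overlap in either direction. Of the 10 other receptors and co-receptors tested, groups were without overlap for these 3 and, in the higher direction, for 1 (*ENG*). *BMPR1A* overlapped. Each of the 3 kept its call without control replicate 2 or 3 and lost it in the other leave-one-out fits: for *ACVR2B* the adjusted p was then 0.0688 without control replicate 1 and 0.0987, 0.0652 and 0.0565 without knockdown replicates 1, 2 and 3, for *ACVR1* it was 0.0969 and 0.057, 0.117 and 0.141, and for *NEO1* 0.053 and 0.0657, 0.0698 and 0.0734. *RGMB* (-0.52, SE 0.16, adjusted p = 0.0675), *BAMBI* (-0.52, SE 0.25, adjusted p = 0.223) and *RGMA* (-0.10, SE 0.14, adjusted p = 0.673) were not called. *BAMBI* was at -0.18 (adjusted p = 0.459) without control replicate 2 and at -0.72 (adjusted p = 0.0383, called) without control replicate 3, and *RGMB* was called without control replicate 3 (-0.66, adjusted p = 0.0184).

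*ENG*, endoglin, a co-receptor best known from endothelial cells, went the other way at low counts. It had 19.4, 15.2 and 9.26 normalized counts in control replicates 1, 2 and 3 and 52.0, 38.6 and 50.5 in the knockdown cultures, so every knockdown culture was above every control (log2 fold change 1.69, SE 0.32, adjusted p = 0.00806). It was called in all 13 alternatives in which it was tested. Of 4 endothelial markers, 1 passed the filter: *KDR*, with 92.8, 86.6 and 87.5 in the controls and 59.8, 33.4 and 54.8 in the knockdown, was lower (-0.85, SE 0.24, adjusted p = 0.0438). *PECAM1*, *CDH5* and *VWF* stayed at or near 0 (at most 5.22, 1.04 and 8.03 normalized counts in any culture). The sum of the 4 markers, most of it *KDR*, was 90.5 to 99.0 in the controls and 40.7 to 70.4 in the knockdown, so it mainly restates that gene.

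None of the 4 signal-transducing SMADs tested was called by the main edgeR fit or the DESeq2 Wald test, 1 (*SMAD4*) having an unadjusted p under 0.05 in the main fit. With the correction for GC content and length, edgeR called *SMAD4* lower (adjusted p = 0.0256). Without control replicate 2, it called *SMAD4* (adjusted p = 0.0455) and *SMAD5* (0.0417) lower. The shared partner *SMAD4* had 1780, 1653 and 1674 normalized counts in the controls and 1326, 1496 and 1485 in the knockdown, without overlap (log2 fold change -0.25, SE 0.09, adjusted p = 0.105). *SMAD5* was at -0.23 (SE 0.12, adjusted p = 0.231) and *SMAD9* at 0.16 (SE 0.14, adjusted p = 0.509). Of 10 intracellular regulators, 2 were lower. *TOB1*, an antiproliferative protein that binds SMADs and restrains BMP signalling, had 1259, 1262 and 960 in the controls and 601, 773 and 741 in the knockdown. Its groups were far apart (-0.72, SE 0.14, adjusted p = 0.00758), and it was called in all 14 alternatives. *SMURF2*, a ubiquitin ligase that marks SMADs and receptors for degradation, had 1222, 1081 and 1086 in the controls and 818, 910 and 866 in the knockdown (-0.39, SE 0.10, adjusted p = 0.0297). Its call was lost without control replicate 1 (adjusted p = 0.104) and without knockdown replicate 1 (0.124), 2 (0.0951) or 3 (0.133). The co-repressor *SKI* (0.21, adjusted p = 0.211), the type I receptor binding protein *FKBP1A* (-0.11, adjusted p = 0.49) and the ubiquitin ligase *NEDD4L* (0.08, adjusted p = 0.602) were not called.

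Of 10 other target genes, 1 was higher and 1 lower. *ATOH8*, a helix-loop-helix factor induced by BMP, had 17.4, 28.6 and 30.9 normalized counts in the controls and 62.6, 51.1 and 55.8 in the knockdown (log2 fold change 1.14, SE 0.27, adjusted p = 0.0232). *RUNX2*, the osteoblast transcription factor, had 590, 449 and 484 in the controls and 351, 312 and 404 in the knockdown (-0.51, SE 0.14, adjusted p = 0.0427). Neither gene's groups overlapped. *ATOH8* lost its call without control replicate 1 (adjusted p = 0.0806) and without knockdown replicate 1 (0.101), 2 (0.0663) or 3 (0.0832), and *RUNX2* without control replicate 1 (0.148) or 3 (0.0513) and without knockdown replicate 1 (0.137), 2 (0.196) or 3 (0.074). *ID4* had 2507, 3019 and 2766 in the controls and 2195, 2986 and 2840 in the knockdown, overlapping (-0.05, SE 0.12, adjusted p = 0.837), and *HEY1* (0.06, adjusted p = 0.774) and *UNC5B* (0.09, adjusted p = 0.625) were not called.

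The E proteins are the partners that ID proteins bind. *TCF3*, which codes for E12 and E47, had 1526, 1756 and 1567 normalized counts in control replicates 1, 2 and 3 and 2689, 2776 and 2770 in the knockdown cultures. All knockdown cultures were above all controls (log2 fold change 0.76, SE 0.09, adjusted p = 4.42e-04), and the call was held in all 14 alternatives. The other E protein genes *TCF12* (-0.19, SE 0.09, adjusted p = 0.231) and *TCF4* (-0.18, SE 0.11, adjusted p = 0.328) were not called. Protein was not measured for the ID or E protein genes.

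In the TGF-beta and activin branch, which shares SMAD4 and SMAD7 with the BMP pathway, 2 of 14 genes tested were lower and 1 higher. *SMAD2*, the receptor-activated SMAD of this branch, had 1807, 1560 and 1686 normalized counts in the controls and 1108, 1256 and 1213 in the knockdown (log2 fold change -0.50, SE 0.10, adjusted p = 0.00814). *TGFBR2*, the type II TGF-beta receptor, had 772, 809 and 606 in the controls and 527, 557 and 513 in the knockdown (-0.45, SE 0.12, adjusted p = 0.042). *LTBP1*, which holds latent TGF-beta in the matrix, had 1791, 1594 and 1817 in the controls and 2277, 2319 and 2291 in the knockdown (0.40, SE 0.09, adjusted p = 0.0139). All 3 had groups without overlap. *SMAD2* lost its call without knockdown replicate 1 (adjusted p = 0.0505), *LTBP1* without knockdown replicate 1 (0.0583), 2 (0.0815) or 3 (0.0784), and *TGFBR2* without control replicate 1 (0.13) and knockdown replicate 1 (0.13), 2 (0.117) or 3 (0.169). *SMAD3* (-0.20, adjusted p = 0.147), *TGFBR1* (-0.18, adjusted p = 0.362) and *ACVR1B* (-0.06, adjusted p = 0.756) were not called.

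**Figure D5:**
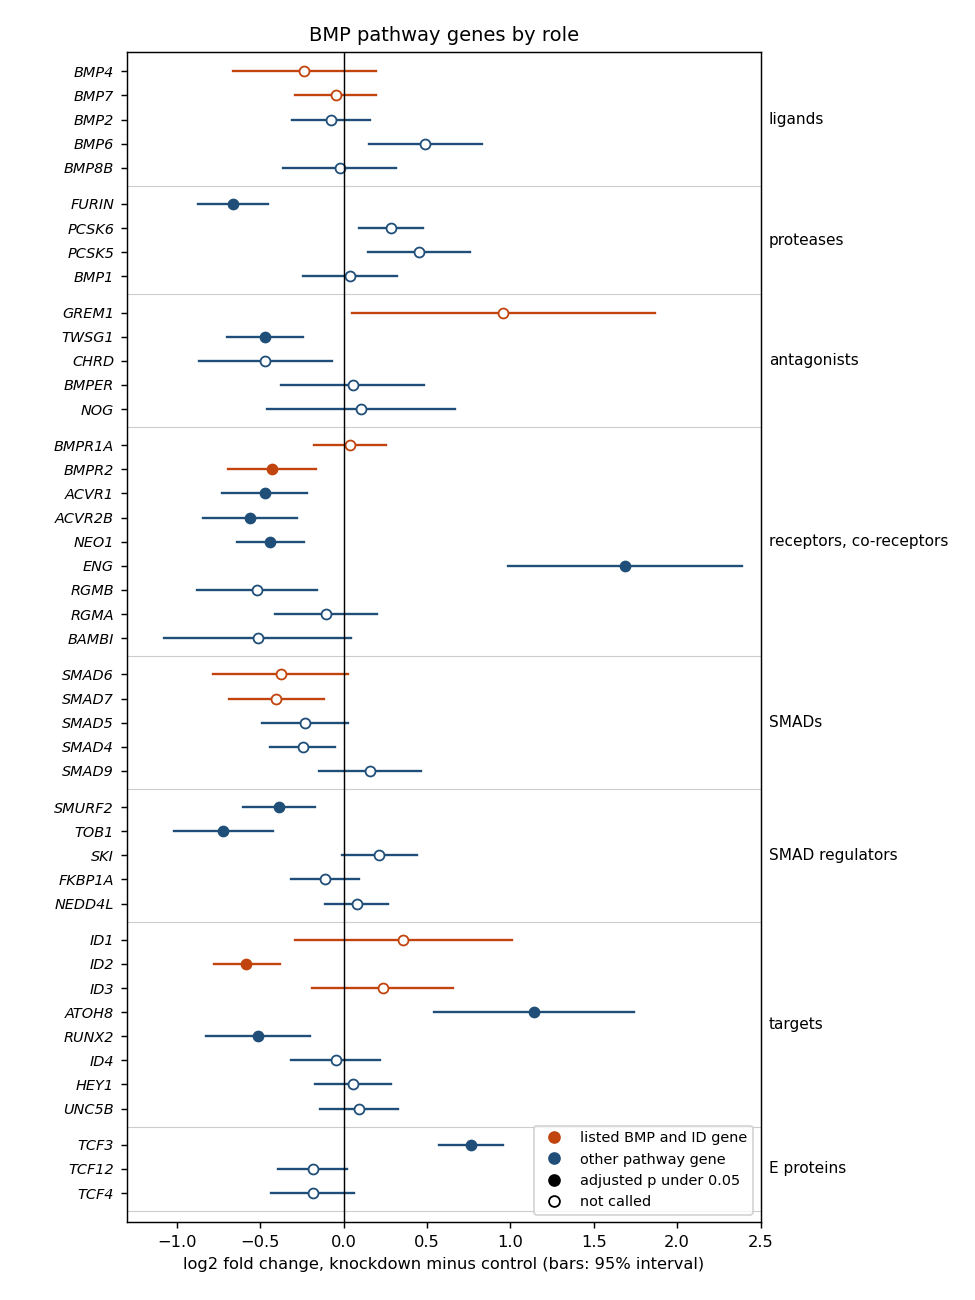
Log2 fold change, knockdown minus control (horizontal axis), with 95% intervals, of the 10 BMP and ID genes (orange) and the other named BMP pathway genes (blue), in rows by role; filled points passed an adjusted p of 0.05 in edgeR with all 6 cultures. Filled points to the left of 0 are found among proteases, antagonists, receptors, SMAD regulators and targets, while *ENG*, *ATOH8* and *TCF3* lie to the right.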

How the data were processed

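Per the labels and the study's methods, stranded mRNA libraries from 3 knockdown and 3 control HEK293 cultures were sequenced. The authors deposited whole-number read counts per gene; the submitters' processing notes name FastQC 0.11.9, Trim Galore 0.6.6, STAR 2.7.9a, featureCounts 2.0.1 and hg38, and the paper's methods name other versions of some tools and rRNA removal. Gene annotation, strand setting and treatment of multi-mapping reads are not given in the sources used here.

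The main test was edgeR's quasi-likelihood F test with robust dispersions (version 4.0.16 in R 4.3.3) after filterByExpr and TMM, with Benjamini-Hochberg adjustment over all genes tested. Its p measures the spread between 3 cultures of one line per group. Normalized counts were brought to a common library size. The estimated biological coefficient of variation between cultures came to 12.4%, which sets the precision together with 13900965 to 16869948 counts per library. Positions are from GENCODE v44 on GRCh38, and levels per length use its canonical transcripts. Alternatives were DESeq2 1.42.0 size factors and Wald test, library sizes alone, other filters (none, or at least 10 counts in every culture), limma-voom (limma 3.58.1), the replicate block, a loess offset for GC content and length (span 0.3, known for 97.3% of tested genes), and leaving out each culture. The ratios of *ID2* to other *ID* genes were added after seeing the data. Scripts were tested on simulated data.

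The named genes were the 10 genes, every called gene of the pathway lists and, of the uncalled, the 3 per list with the highest mean count. The members and lists were chosen with earlier results of these data known.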

Additional observations from a re-analysis of the deposited data

How the results depend on the processing

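*ID2* kept its direction and its call in all 14 alternatives, as did *FURIN*, *TOB1* and *TCF3* among the other pathway genes. Of the 10 genes, limma-voom called 1 lower and the replicate block called 1 higher (*GREM1*, adjusted p = 0.039). With the offset for GC content and transcript length, 1512 genes were called lower and 1362 higher, and 16 other pathway genes lower and 7 higher. With 1 culture left out, the calls ran from 233 to 1238 lower and 289 to 1274 higher over all genes, from 1 to 2 lower and 0 to 2 higher among the 10 genes, and from 2 to 13 lower and 2 to 7 higher among the other pathway genes. The lowest counts over all genes came without knockdown replicate 3 (lower) or 2 (higher) and the highest, in both directions, without control replicate 2; the cause of that rise was not tested. Named genes called only in some of these fits included *SMAD5*, *SMAD4*, *SKI*, *BMP6* and *PCSK6* without control replicate 2, and *RGMB*, *BAMBI*, *CHRD*, *BMP6*, *PCSK6* and *PCSK5* without control replicate 3.

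The replicate numbers of the labels are not documented as pairs, and deviations of same-numbered cultures from their group means had correlations of -0.20, -0.11 and -0.04. The column names carry a second numbering, in which only knockdown replicate 1 and control replicate 3 share a number. Deviations of that pair had a correlation of -0.01, and the block did not use this numbering. With the replicate block, 619 genes were called lower and 714 higher, in place of 690 and 804; among the 10 genes 2 were lower, and *RGMB* and *PCSK5* were gained and *SMURF2* and *TGFBR2* lost among the other pathway genes.

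The sign of uncalled genes near 0 turned only with 1 culture left out, with log2 fold changes from -0.102 to 0.024 for *BMP7*, -0.041 to 0.097 for *BMPR1A*, -0.130 to 0.139 for *BMP8B*, -0.053 to 0.122 for *BMP1*, -0.134 to 0.075 for *ID4*, -0.044 to 0.202 for *BMPER*, -0.091 to 0.412 for *NOG*, -0.190 to 0.052 for *RGMA* and -0.018 to 0.157 for *HEY1*.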
